A study of Homo sapiens with 6 samples.

Results

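The EGF receptor family and its ligands were followed in HK-2 cells through 10 genes, chosen by name with earlier results of these data known. They were the ligand genes AREG, EREG, HBEGF, TGFA, BTC and NRG1, the receptor genes EGFR, ERBB2 and ERBB3, and the inhibitor gene ERRFI1. All 10 were found by symbol among the 35035 genes of the deposited table. HK-2 is an immortalised line of human proximal tubular epithelial cells. The 3 circAASS libraries came from cells given a circAASS overexpression plasmid, circAASS being by its name a circular RNA of AASS. Their labels give the genotype as circAASS-overexpressed. The 3 vector libraries came from cells given the empty plasmid and carry the genotype label WT. Cells of both groups had 24 h at 1% oxygen and then 12 h of reoxygenation, and normoxic cells were not analysed here. The labels do not say whether the repeats were separate cultures, so the p-values reflect library-to-library spread, which may be technical.

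Ligands of this family are made as membrane-anchored precursors and are released by proteases of the cell surface, chiefly metalloproteases of the ADAM family. AREG, HBEGF, TGFA, EREG and BTC bind EGFR, and HBEGF, EREG and BTC also bind ERBB4, whereas NRG1 binds ERBB3 and ERBB4. Binding joins the receptors into pairs, ERBB2 being the partner without a known ligand and ERBB3 a receptor with little kinase activity of its own, and the pair signals through RAS, ERK and PI3K until it is taken up and degraded. In the kidney, EGFR of the proximal tubule is known for its part in regrowth after acute injury and, when its activity persists, in fibrosis.

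Library totals ran from 47384879 to 58179563 reads with circAASS and from 45148425 to 52470055 with vector. Transcripts of the mitochondrial genome took 9.09% to 10.1% of the reads with circAASS and 8.86% to 9.03% with vector. RN7SK, an RNA without a poly(A) tail, had 882, 2606 and 2984 reads with circAASS against 668, 576 and 642 with vector; its part in the results on the 10 genes was not tested. AASS itself stood at 0.880 ± 0.0842 RPKM with circAASS and 1.23 ± 0.141 with vector (SD, n = 3 each). It was not called (limma adjusted p = 0.0677), though 2 of 15 other settings called it lower. Reads of AASS do not separate circular from linear RNA and do not check the labels. Epithelial and kidney markers were present, with KRT8, KRT18, KRT19, EPCAM and PAX8 detected. However, 6 of 11 proximal tubule markers, LRP2, CUBN, AQP1, SLC34A1, ANPEP and HNF4A, stayed under 0.1 RPKM in every library, as did CDH1. Summed over the list, proximal tubule markers gave 63.7 to 69.8 RPKM with circAASS and 59.9 to 60.7 with vector, but its members went opposite ways. PAX8 averaged 42.3 ± 2.64 RPKM with circAASS and 24.95 ± 1.22 with vector, and was called higher (SD, n = 3 each; limma adjusted p = 0.000235). CDH6 averaged 4.89 ± 0.256 RPKM with circAASS and 13.5 ± 0.269 with vector, and GGT1 7.11 ± 0.289 with circAASS and 9.25 ± 0.548 with vector; both were called lower (limma adjusted p = 5.55e-05 and 0.00839). The part of these markers in the results was not tested. All 4 endothelial markers and all 5 markers of other nephron segments were under 0.1 RPKM in every library, and so were 3 of 4 leukocyte markers; CD68 was the exception. The fibroblast list gave 4.17 to 4.49 RPKM with circAASS and 3.69 to 4.45 with vector, nearly all from LUM and COL1A1. In such bulk libraries fewer cells of a type and less RNA per cell cannot be told apart.

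Of the 10 genes, 6 rose with circAASS, 2 fell and 2 did not pass the test (limma on log2(RPKM + 0.1), adjusted p under 0.05 over all 19350 tested genes). The share of all tested genes called was 32.3%, with 16.0% higher and 16.3% lower. RPKM are read numbers divided by gene length and library size. The genes that rose were the ligands AREG, EREG, NRG1 and HBEGF, the inhibitor ERRFI1 and the receptor EGFR, and those that fell were the ligand BTC and the receptor ERBB2. The median log2 fold change of the 10 was 0.44, against -0.01 over all tested genes. The RPKM of the groups did not overlap in 8 of the 10, as in 47.5% of all tested genes. With library size as the sole scaling, 2159 genes were higher and 4023 lower over the whole table, in place of 3091 and 3152, and the calls of the 10 genes were the same.

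**Figure D1:**
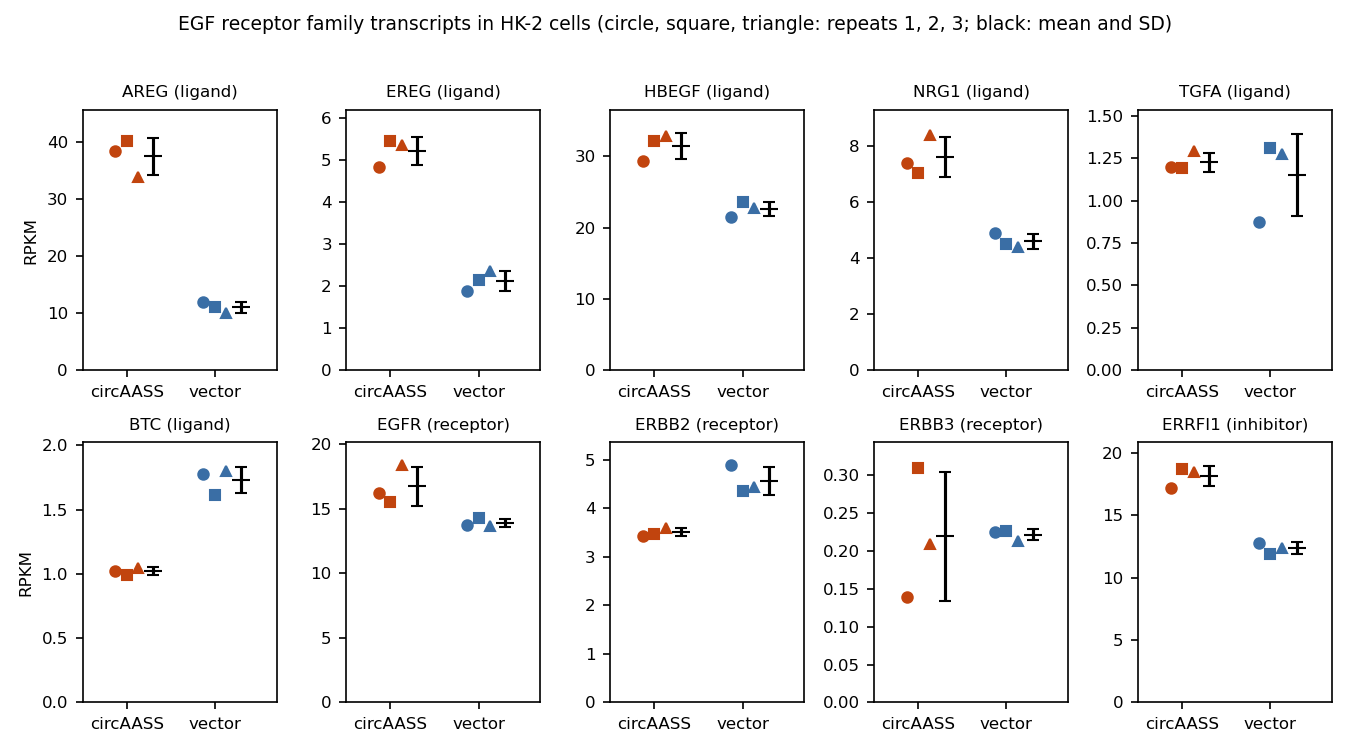
RPKM of the 10 genes in each library, circAASS left of vector, with 1 panel per gene and every y axis starting at 0; symbols mark the repeats and black bars the mean and SD of 3 libraries. The circAASS libraries lie apart from the vector libraries in every panel but those of TGFA and ERBB3.

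AREG encodes amphiregulin, an EGFR ligand of epithelial cells. It had 38.4, 40.1 and 33.9 RPKM in the circAASS libraries, against 11.9, 11.1 and 10.0 RPKM in the vector libraries. These values rest on 3034, 3845 and 2648 reads with circAASS and on 883, 930 and 867 with vector. Every circAASS library was thus above every vector library, and the third circAASS library was the lowest of its group. AREG averaged 37.5 ± 3.20 RPKM with circAASS and 11.0 ± 0.923 with vector (SD, n = 3 each), a ratio of 3.41. Its log2 fold change of 1.83 (SE 0.09, limma adjusted p = 9.07e-05) ranked 28 from the top among the 19350 tested genes.

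EREG, which encodes epiregulin, an inducible ligand of EGFR and ERBB4, followed at a lower level. It had 4.85, 5.47 and 5.35 RPKM with circAASS, against 1.88, 2.14 and 2.36 with vector. The groups were well apart, the lowest circAASS value lying above the highest vector value. The means were 5.22 ± 0.330 RPKM with circAASS and 2.12 ± 0.241 with vector (SD, n = 3 each), and the log2 fold change was 1.33 (SE 0.09, limma adjusted p = 0.000234).

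AREG and EREG are neighbours on chromosome 4 in a stretch that also holds the ligand genes EPGN and BTC; gene positions are those of GENCODE 29 on GRCh38. EPGN lies at chr4:74308473-74315307, EREG at chr4:74365143-74388751 and AREG at chr4:74445134-74455009, all on the plus strand, and BTC lies at chr4:74744759-74794686 on the minus strand. EREG ends 56.4 kb before AREG starts, and 289.8 kb separate the end of AREG from the nearest base of BTC. Across this stretch of 486.2 kb the genes did not move together: EREG and AREG rose, BTC fell, and EPGN, which encodes epigen, was at 0 reads in all circAASS libraries and at 2, 5 and 4 reads in the vector libraries, too few to be tested. At 0 reads its level in a circAASS library could still be up to 0.0698 RPKM, the worth of 3 read pairs or 6 reads, counting error alone considered. Every vector value of EPGN was under this limit, which holds for a single library. A difference between the groups was not tested at this depth. The annotation lists 2 antisense RNA genes in the stretch as well, which were not analysed here.

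**Figure D2:**
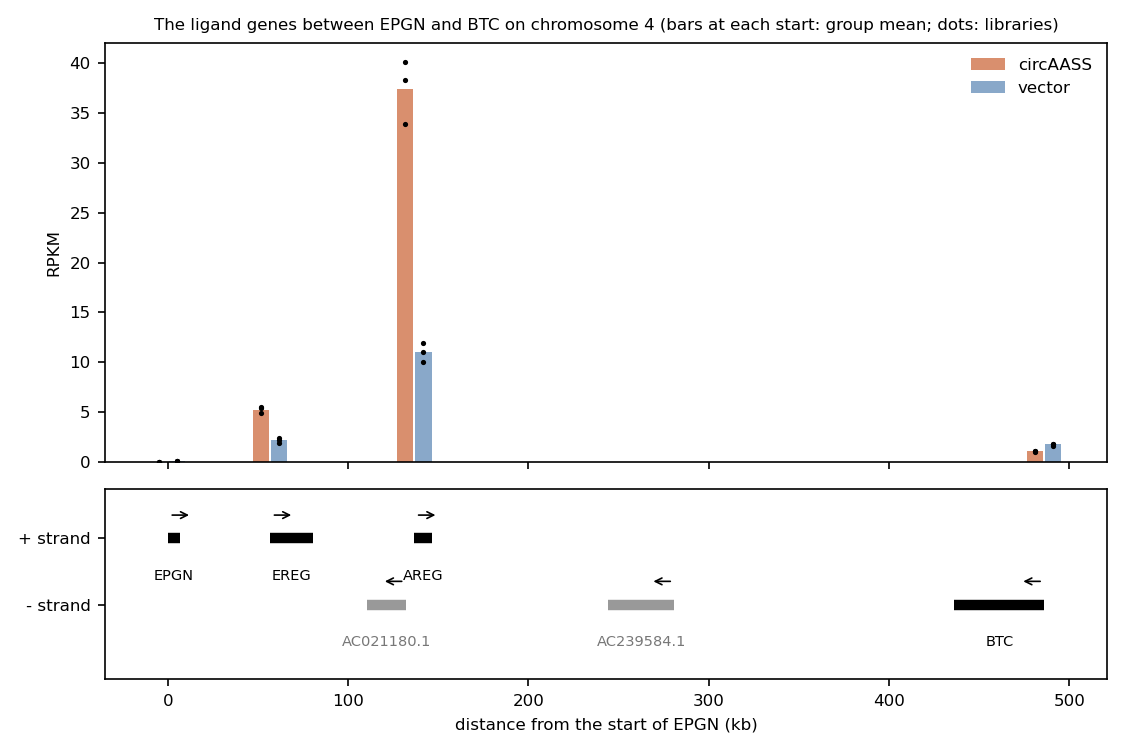
The stretch of chromosome 4 from EPGN to BTC, with distance from the start of EPGN in kb on the x axis. Above, bars give the mean RPKM of circAASS (left) and vector (right) at each gene's start, with dots for the libraries; below, boxes give the genes by strand with arrows in the direction of transcription. AREG and EREG are higher with circAASS and BTC is higher with vector.

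BTC encodes betacellulin, which binds EGFR and ERBB4. It had 1.02, 0.989 and 1.05 RPKM with circAASS, against 1.78, 1.61 and 1.80 with vector, or 138, 162 and 140 reads against 226, 232 and 266. The circAASS libraries were all below the vector libraries and lay close together. BTC averaged 1.02 ± 0.0302 RPKM with circAASS and 1.73 ± 0.101 with vector (SD, n = 3 each; log2 fold change -0.64, SE 0.10, limma adjusted p = 0.00284). With a pseudocount of 1 RPKM in place of 0.1 its log2 fold change was -0.39, since BTC is a low gene. Within a library the ratio of AREG to BTC does not depend on scaling between libraries. That ratio was 37.6, 40.6 and 32.3 with circAASS, against 6.68, 6.85 and 5.57 with vector. The ratio of EREG to BTC was 4.74, 5.53 and 5.10 with circAASS, against 1.05, 1.32 and 1.31 with vector. For each of these ratios, chosen after the values were seen, the groups did not overlap, and the exact permutation test gave p = 0.1 (two-sided), the smallest that 3 libraries against 3 allow.

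The promoters of the 3 tested neighbours are shown because AREG and EREG moved one way and BTC the other. They run from 250 bases before to 50 bases from the gene's start (RefSeq, GRCh38.p14, each on the strand of its gene). Capitals mark a cyclic AMP response element, TGACGTCA, and a TATA box, TATAAA. The pattern TGANTCA, N being any base, was also searched as a loose form of AP-1 sites. Every motif was sought on both strands and only in these exact letters, so variant forms were not counted.
AREG, chr4:74444886-74445185, plus strand: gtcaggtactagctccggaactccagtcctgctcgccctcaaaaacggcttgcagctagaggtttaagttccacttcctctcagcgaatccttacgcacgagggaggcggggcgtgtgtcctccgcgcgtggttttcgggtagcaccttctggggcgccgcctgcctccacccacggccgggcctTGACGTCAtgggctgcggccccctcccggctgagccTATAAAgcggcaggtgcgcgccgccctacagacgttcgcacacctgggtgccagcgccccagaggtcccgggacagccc
EREG, chr4:74364895-74365194, plus strand: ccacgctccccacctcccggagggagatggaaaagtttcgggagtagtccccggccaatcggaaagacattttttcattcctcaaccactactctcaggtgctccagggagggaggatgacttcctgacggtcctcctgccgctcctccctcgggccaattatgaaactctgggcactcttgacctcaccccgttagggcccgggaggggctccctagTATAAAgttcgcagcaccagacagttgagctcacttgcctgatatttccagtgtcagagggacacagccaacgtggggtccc
BTC, chr4:74794474-74794773, minus strand: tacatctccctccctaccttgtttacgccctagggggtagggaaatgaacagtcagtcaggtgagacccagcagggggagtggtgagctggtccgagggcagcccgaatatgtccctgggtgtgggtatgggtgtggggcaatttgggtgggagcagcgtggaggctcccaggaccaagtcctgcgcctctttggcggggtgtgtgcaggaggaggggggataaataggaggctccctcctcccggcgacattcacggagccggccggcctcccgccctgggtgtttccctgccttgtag
AREG holds TGACGTCA beginning 65 bases before its start, at chr4:74445071-74445078, and TATAAA beginning 29 bases before it. EREG holds TATAAA beginning 32 bases before its start and neither of the other motifs. In the BTC window none of the 3 was found in these exact letters, though it holds gataaata. Of all 35116 promoters of this length, 1.85% held TGACGTCA, 11.5% held TATAAA and 7.71% held TGANTCA. The window of HBEGF and that of ERRFI1 held none of the 3 motifs, nor did either window listed for TGFA; that of EPGN held TATAAA, that of ERBB2 TGANTCA, and of the windows listed for EGFR the second held TGANTCA and TATAAA and the first none. In all, windows of 8 of the 10 genes were searched. NRG1 and ERBB3 were not part of this search, so nothing is said of their motifs. The AREG window had 66.3% G and C, that of EREG 57.7% and that of BTC 63.0%, against a median of 58.7% over all windows. A match describes the letters only and shows no binding, and the lack of a match does not show that a site is absent.

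HBEGF (chr5:140332843-140346631), the heparin-binding ligand of EGFR and ERBB4, had 29.4, 32.1 and 32.8 RPKM with circAASS, against 21.5, 23.5 and 22.8 with vector. All circAASS libraries lay above all vector libraries, by less than for AREG. The means were 31.4 ± 1.78 RPKM with circAASS and 22.6 ± 1.03 with vector (SD, n = 3 each), with a log2 fold change of 0.55 (SE 0.05, limma adjusted p = 0.00068). NRG1, which encodes neuregulin 1 on chromosome 8, had 7.40, 7.03 and 8.39 RPKM with circAASS, against 4.90, 4.51 and 4.39 with vector. Its groups were apart too, and its log2 fold change was 0.78 (SE 0.08, limma adjusted p = 0.00073; means 7.61 ± 0.705 with circAASS and 4.60 ± 0.268 with vector, SD, n = 3 each).

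TGFA (chr2:70447280-70554193), the gene of transforming growth factor alpha, did not pass. It had 1.20, 1.19 and 1.29 RPKM with circAASS, against 0.875, 1.31 and 1.27 with vector, so that the first vector library stood below the other 5 and the groups overlapped. The log2 fold change was 0.17 with a 95% interval of -0.19 to 0.53 (limma adjusted p = 0.436). Without the first vector library it was 0.01, the lowest estimate over the settings tried. The interval leaves room for a change as large as that of EGFR.

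The order of the ligands by level differed between the groups. With circAASS it ran AREG, HBEGF, NRG1, EREG, TGFA, BTC, and with vector HBEGF, AREG, NRG1, EREG, BTC, TGFA; in each group no ligand of these 6 overlapped its neighbour in that order. The ratio of AREG to HBEGF within a library was also chosen after the values were seen. It was 1.30, 1.25 and 1.03 with circAASS, against 0.552, 0.470 and 0.441 with vector (exact permutation test, two-sided, p = 0.1, the smallest possible). AREG thus exceeded HBEGF per length of transcript in all circAASS libraries and in no vector library. Summed over the 7 EGFR ligands measured, EGF and EPGN included, the level was 75.3, 80.2 and 74.8 RPKM with circAASS, against 38.2, 40.1 and 38.7 with vector. AREG made up 48.8% ± 3.02 of this sum with circAASS and 28.2% ± 2.64 with vector (SD, n = 3 each). The share of HBEGF was 41.0% ± 2.53 with circAASS and 57.9% ± 1.44 with vector. That of BTC was 1.33% ± 0.0880 with circAASS and 4.44% ± 0.357 with vector.

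**Figure D3:**
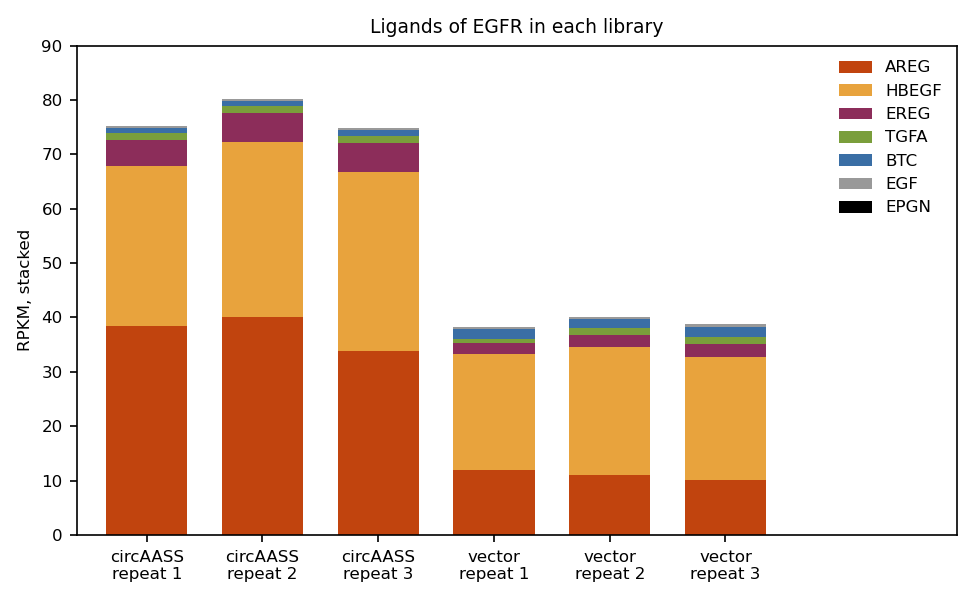
RPKM of the 7 ligand genes of EGFR, stacked for each library, circAASS libraries on the left and vector libraries on the right. The stacks reach 74.8 to 80.2 RPKM with circAASS and 38.2 to 40.1 with vector; AREG and HBEGF make up most of each.

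Among the receptors, EGFR (chr7:55019021-55211628) was by far the most abundant and rose slightly. It had 16.2, 15.5 and 18.4 RPKM with circAASS, against 13.7, 14.3 and 13.7 with vector. The groups did not overlap, although the second circAASS library came close to the vector libraries. EGFR averaged 16.7 ± 1.49 RPKM with circAASS and 13.9 ± 0.341 with vector (SD, n = 3 each; log2 fold change 0.34, SE 0.06, limma adjusted p = 0.00691). A change of at least that size was seen in 34.6% of all tested genes.

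ERBB2 (chr17:39687914-39730426) had 3.44, 3.48 and 3.60 RPKM with circAASS, against 4.90, 4.36 and 4.44 with vector. All circAASS libraries were below the vector libraries, among which the first was the highest. The log2 fold change was -0.30 (SE 0.07, limma adjusted p = 0.0168; means 3.51 ± 0.0820 with circAASS and 4.57 ± 0.289 with vector, SD, n = 3 each). Without the first vector library it was -0.24 and the adjusted p of 0.0518 no longer passed; over all settings the adjusted p ran from 0.000811 to 0.0518. The ratio of ERBB2 to EGFR was 0.212, 0.224 and 0.196 with circAASS, against 0.357, 0.305 and 0.325 with vector (exact permutation test, two-sided, p = 0.1, the smallest possible). This ratio was also chosen after the values were seen. Antisense genes overlap 7.4% of the ERBB2 exon sequence.

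ERBB3 (chr12:56076799-56103505), the receptor of neuregulins, was low. It had 0.140, 0.310 and 0.210 RPKM with circAASS, against 0.225, 0.226 and 0.214 with vector. Behind these are 58, 156 and 86 reads with circAASS and 88, 100 and 97 with vector. The circAASS libraries spread on either side of the vector libraries. The log2 fold change was 0.01 with a 95% interval of -0.50 to 0.51 (limma adjusted p = 0.987), and the SD was 0.0855 RPKM with circAASS and 0.00710 with vector (n = 3 each). The ERBB3 level was below that of its ligand gene NRG1 in every library. ERBB4, the other neuregulin receptor, had 6, 0 and 0 reads with circAASS and 6, 0 and 2 with vector, and was not tested.

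ERRFI1 (chr1:8004404-8026308) encodes MIG6, a feedback inhibitor that binds the kinase domain of EGFR and ERBB2 and is itself induced by EGFR signalling. It had 17.2, 18.7 and 18.5 RPKM with circAASS, against 12.8, 11.9 and 12.4 with vector. The groups were clearly apart. ERRFI1 averaged 18.1 ± 0.807 RPKM with circAASS and 12.4 ± 0.449 with vector (SD, n = 3 each), with a log2 fold change of 0.62 (SE 0.05, limma adjusted p = 0.000405). By level ERRFI1 and EGFR overlapped with circAASS, while with vector EGFR lay above ERRFI1 in every library.

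**Figure D4:**
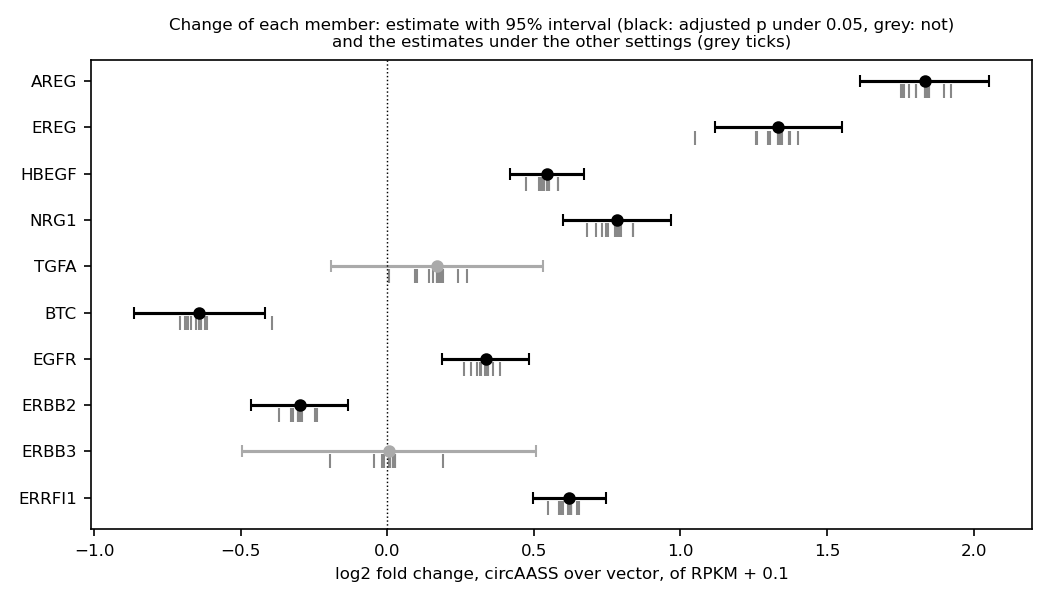
Log2 fold change of each gene, circAASS over vector, on the log2(RPKM + 0.1) scale; points with bars are the estimate and its 95% interval, black where the adjusted p was under 0.05, and grey ticks are the estimates under the other settings. AREG and EREG lie farthest to the right at 1.83 and 1.33, BTC and ERBB2 lie left of 0, and the intervals of TGFA and ERBB3 span 0.

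The remaining ligand and receptor genes were low. EGF had 0.388, 0.345 and 0.375 RPKM with circAASS, against 0.289, 0.339 and 0.485 with vector (limma adjusted p = 0.794). NRG4 averaged 0.244 ± 0.0327 RPKM with circAASS and 0.281 ± 0.0859 with vector (SD, n = 3 each; limma adjusted p = 0.815), and 38.1% of its exon sequence has an antisense gene. NRG2 had 2, 6 and 4 reads with circAASS and 8, 10 and 8 with vector. NRG3 had 0 reads in all circAASS libraries, which allows up to 0.0250 RPKM by the same limit of 3 read pairs, and 0, 4 and 0 with vector. Of this list of 6 genes, 2 were tested and neither passed.

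Genes that act on the ligands and receptors were read from lists chosen with earlier results of these data known, and the counts describe the lists without a test of them. Of 11 tested genes of ligand shedding, 4 fell and none rose (36.4% called, against 32.3% of all tested genes; median log2 fold change -0.06). ADAM19, a metalloprotease linked to the release of neuregulins, averaged 2.84 ± 0.319 RPKM with circAASS and 5.34 ± 0.369 with vector (SD, n = 3 each; log2 fold change -0.82). ADAM12, a metalloprotease linked to the release of HBEGF, averaged 1.62 RPKM with circAASS and 2.41 with vector. RHBDF2, the carrier iRhom2 that brings ADAM17 to the cell surface, averaged 1.43 RPKM with circAASS and 2.32 with vector. RHBDL2, a protease within the membrane, averaged 2.27 RPKM with circAASS and 3.44 with vector, and the limma adjusted p of these 4 genes was at most 0.00946. ADAM17, the main protease of most of these ligands, had 8.96, 8.94 and 9.14 RPKM with circAASS, against 8.98, 9.36 and 9.88 with vector (log2 fold change 0.01, limma adjusted p = 0.881). Of the ADAM17 exon sequence 13.6% has an antisense gene. ADAM10 was also not called (log2 fold change 0.08, limma adjusted p = 0.302). ADAM17 and ADAM10 were singled out after their values were seen.

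Of 13 tested negative regulators of the receptors, 7 rose and none fell. The 6 that did not pass all had negative log2 fold changes, from -0.20 to -0.06. The share called was 53.8%, against 32.3% of all tested genes, and the median log2 fold change was 0.29. UBASH3B, a phosphatase that binds the ubiquitin ligase CBL and is known both to act on EGFR and to slow its breakdown, averaged 10.5 ± 0.363 RPKM with circAASS and 5.91 ± 0.0527 with vector (SD, n = 3 each; log2 fold change 0.89, limma adjusted p = 0.000115). SH3KBP1, an adaptor between CBL and the uptake machinery, averaged 40.8 ± 1.48 RPKM with circAASS and 26.5 ± 1.77 with vector. PTPRK, a receptor phosphatase that acts on EGFR, averaged 20.6 RPKM with circAASS and 15.6 with vector, and SOCS5, which promotes breakdown of EGFR, averaged 2.09 with circAASS and 1.29 with vector. The others that rose were SOCS4, CBL and RNF41, the last a ubiquitin ligase of ERBB3 (log2 fold changes of 0.37, 0.59 and 0.29). With library size as the sole scaling, 1 gene of this list fell, the phosphatase gene PTPRJ (log2 fold change -0.21, limma adjusted p = 0.0362).

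Most adaptors and kinases downstream did not pass: of 29 tested, 5 rose, 1 fell and 23 did not pass. The share called was 20.7%, against 32.3% of all tested genes, and the median log2 fold change was 0.04. MAP2K2, a kinase that activates ERK, averaged 17.9 ± 0.693 RPKM with circAASS and 11.8 ± 0.911 with vector (SD, n = 3 each; log2 fold change 0.67, limma adjusted p = 0.000857). HRAS, MAP2K1, STAT3 and the adaptor GRB2 rose by log2 fold changes of 0.26 to 0.31. PIK3R2, a regulatory subunit of PI3K, was the gene that fell (log2 fold change -0.27), but 87.2% of its exon sequence is shared with genes annotated on the same strand, so its reads are uncertain, and without the second vector library its call was lost (adjusted p = 0.0535). Calls in this list moved with scaling: with library size alone 5 fell. Of 16 genes of receptor trafficking, 2 rose and 1 fell (18.8% called, against 32.3% of all tested genes, with a median of 0.06). RAB5A and RAB7A, small GTPases of early and late endosomes, averaged 17.0 and 228 RPKM with circAASS and 14.4 and 204 with vector, while EPN2, an adaptor of clathrin-mediated uptake, averaged 1.14 RPKM with circAASS and 1.59 with vector. Leaving out the second vector library ended all 3 of these calls (adjusted p of 0.0515 to 0.0886). The call of RAB7A was also lost without the second circAASS or the third vector library (adjusted p up to 0.0769) and that of EPN2 without the third circAASS or the first vector library (up to 0.0715), and 21.0% of the EPN2 exon sequence overlaps exons of other genes.

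Of 20 tested transcripts that EGFR and ERK signalling is known to induce, 9 rose, 5 fell and 6 did not pass. The share called was 70.0%, against 32.3% of all tested genes, and the median log2 fold change was 0.26. SPRY2, an antagonist of receptor tyrosine kinase signalling, averaged 10.3 ± 0.162 RPKM with circAASS and 6.08 ± 0.418 with vector (SD, n = 3 each; log2 fold change 0.82, limma adjusted p = 0.000324). IER3 averaged 75.4 ± 7.95 RPKM with circAASS and 47.8 ± 0.422 with vector. The other rises were the ERK phosphatases DUSP5 and DUSP6, SPRY4, the cytokine IL11, MYC, the cyclin CCND1 and FOSL1, with log2 fold changes from 0.31 to 0.91. Those that fell included the cytokine LIF, which averaged 13.4 ± 0.935 RPKM with circAASS and 21.4 ± 1.07 with vector, the chromatin protein HMGA2 (8.60 RPKM with circAASS, 14.3 with vector), PHLDA1 and the urokinase receptor PLAUR. Exons of antisense genes overlap 40.5% of the DUSP6 and 26.5% of the IER3 exon sequence. Transcripts of this list thus moved in both directions; EGFR activity itself was not measured.

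**Figure D5:**
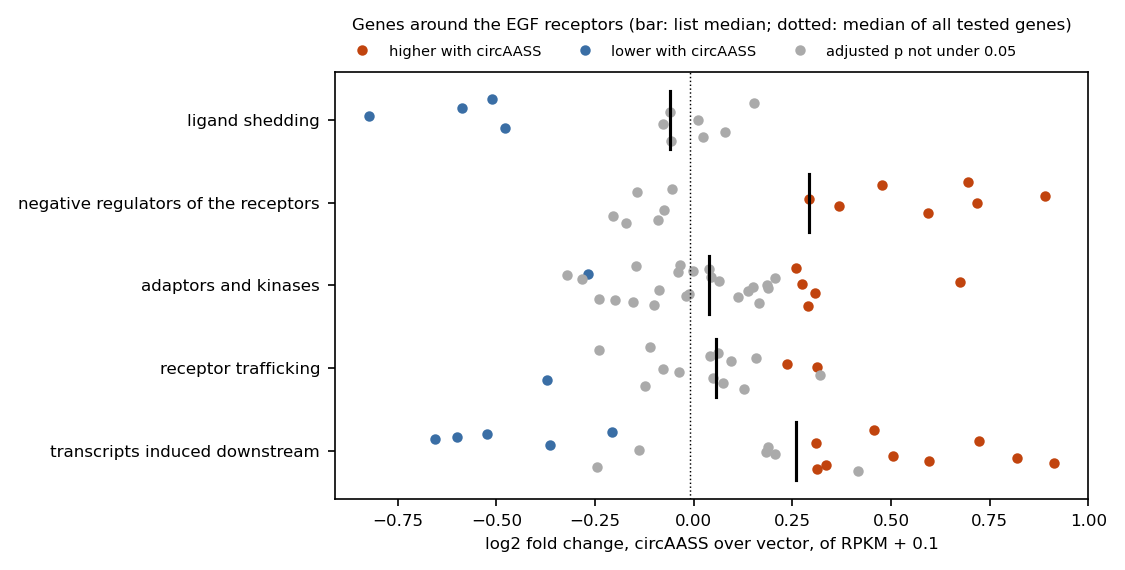
Log2 fold change of each tested gene in 5 lists, circAASS over vector; red points were higher, blue points lower and grey points not called, black bars give the list medians and the dotted line the median of all tested genes. Called genes lie to the left of 0 in ligand shedding, to the right in negative regulators, and on both sides in the other lists.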

How the data were processed

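RNA of 6 libraries was sequenced as read pairs from a stranded mRNA kit, per the labels' protocols. The deposited values are RPKM per gene, and the submitters' processing notes name Trimmomatic 0.36, featureCounts of Subread 1.5.1, edgeR 3.12.1 and GRCh38. The aligner, annotation version and strand setting are not stated in the labels. Without strand, reads of a gene and its antisense partner cannot be told apart. The series' text gives another time after hypoxia than the sample labels, whose times are used.

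Read numbers were recovered from RPKM and exon lengths of GENCODE 29: 22385 of 24697 genes (90.6%) were whole in all 6 libraries within 0.02 reads, and the other lengths, those of EGFR and ERBB3 included, were the smallest that gave whole reads. Mates were mostly counted separately, so counting error exceeds what the read numbers imply. RPKM were scaled by trimmed-mean factors (30% of ratios, 5% of levels) from these reads. The test was limma 3.58.1 under R 4.3.3 on log2(RPKM + 0.1), with trend and robust estimation over genes with 10 reads at the median library size in 3 libraries and 15 reads in all, two-sided with Benjamini-Hochberg adjustment over 19350 genes; fold changes of low genes are understated. The fit was also run on simulated reads with known changes in a small part of the genes. Far more genes were called in the real data, so that run does not check the calls given here. Means ± SD are of deposited RPKM. 28 gene names turned into dates were left out. Alternatives varied pseudocount, filter, scaling, model, block and libraries.

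The 10 genes and all lists were chosen with earlier results of these data known. All 10 are described; of each list the 4 smallest p and any direction with 5 or fewer calls are named, except for results of a few genes that are not reported here. No protein sequences were used here. Python 3.11, numpy 2.4.6, pandas 2.3.3 and matplotlib 3.10.9 were used.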

Additional observations from a re-analysis of the deposited data

How the results depend on the processing

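Over the 15 alternatives, AREG, EREG, HBEGF, NRG1, EGFR, ERRFI1 and BTC kept their direction and their call, and TGFA and ERBB3 were never called. The count of the 10 genes called higher was 6 throughout; the count called lower was 1 to 2 when a library was left out, 1 without the first vector library, where ERBB2 was lost, and 2 otherwise. The log2 fold change ran from 1.75 to 1.92 for AREG, from 1.05 to 1.40 for EREG and from -0.71 to -0.39 for BTC. ERBB3 could not be fitted at a mean of at least 1 RPKM.

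Over all tested genes, 2084 were lower without a filter on low values, and with a library left out 2190 to 2791 were higher and 2013 to 2906 lower. The cause was not tested. Among adaptors and kinases, voom on recovered reads called 8 higher and 3 lower, library size alone 5 lower, a mean of at least 1 RPKM 2 lower, and leaving out a library 0 to 2 lower. Among genes of receptor trafficking, voom called 4 higher and 2 lower, the fit without trend and robust estimation 1 higher, the unfiltered fit 0 lower, and leaving out a library 0 to 3 higher and 0 to 1 lower. Library size alone called 1 negative regulator lower.

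The repeat numbers did not pair the libraries: residuals of same-numbered libraries correlated at -0.01, -0.02 and 0.02. With the repeat number as a replicate block, 2730 genes were higher and 2698 lower, 6 and 2 of the 10 genes kept their calls, and 0 genes of receptor trafficking fell. Depth limits NRG2, NRG3, EPGN and ERBB4, which had at most 10 reads in any library.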
